A study of Mus musculus with 8 samples.

Results

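The proteasome genes of γδ T cells from mouse visceral fat were taken as every protein-coding gene whose symbol starts with Psm, a letter from a to g and a number. The rule found 50 of the 22048 protein-coding genes in the table, which lists 47729 genes in all. Of these, 49 encode subunits, assembly factors or regulators of the proteasome. The remaining gene, Psmc3ip, encodes a meiotic recombination factor named for its binding to the ATPase Psmc3. The filter on low counts was passed by 48 of the 50. The samples were γδ T cells sorted from visceral adipose tissue of C57BL/6 mice, 4 samples after 1 week on KD, a ketogenic diet, and 4 after chow (control). KD is low in carbohydrate and makes the animal rely on fat and ketone bodies. The labels give no age or sex. They leave unsaid if 1 animal or several went into each sample, so p-values cover only the spread among these samples, and that spread may be technical.

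The proteasome is the protease complex that degrades proteins tagged with ubiquitin. Its core particle is a barrel of stacked α and β rings with the catalytic β subunits inside. A regulatory particle, built of a base with an ATPase ring and a lid, binds the ubiquitin chain, removes it and feeds the unfolded protein into the barrel. Lymphocytes also make the immunoproteasome, in which Psmb8, Psmb9 and Psmb10 take the places of Psmb5, Psmb6 and Psmb7. Interferon-γ induces these subunits, and the altered cutting favours peptides that MHC class I molecules present. The constitutive genes are raised by the transcription factor NRF1 (gene Nfe2l1) through antioxidant response elements when proteolysis falls short.

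The promoters of the immunoproteasome subunits Psmb8 and Psmb9 and of the constitutive Psmb5 and Psmb6 are shown because these genes carry the comparison of both kinds of catalytic subunit. The windows, from RefSeq on GRCm38.p6, hold 250 bases before the RefSeq start and 50 after it. GENCODE, from which the gene positions below are taken, starts Psmb8 and Psmb9 further upstream, so the windows of these genes lie inside their GENCODE spans. They lie at chr17:34197945-34198244 (plus strand) for Psmb8, at chr17:34187281-34187580 (minus strand) for Psmb9, at chr14:54617946-54618245 (minus strand) for Psmb5 and at chr11:70525107-70525406 (plus strand) for Psmb6. Capitals mark a γ-activated site (GAS, the letters TTCNNNGAA, an element of interferon-γ response) in Psmb8, a reversed CCAAT box in Psmb9 and an antioxidant response element (ARE, the letters TGACNNNGC) in Psmb5 and Psmb6.
Psmb8: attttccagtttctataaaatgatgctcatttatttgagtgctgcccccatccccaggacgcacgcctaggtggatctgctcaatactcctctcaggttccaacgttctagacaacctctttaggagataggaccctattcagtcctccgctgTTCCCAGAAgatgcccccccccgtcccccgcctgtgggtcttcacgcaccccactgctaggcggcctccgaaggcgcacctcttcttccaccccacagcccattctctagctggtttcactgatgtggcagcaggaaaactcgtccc
Psmb9: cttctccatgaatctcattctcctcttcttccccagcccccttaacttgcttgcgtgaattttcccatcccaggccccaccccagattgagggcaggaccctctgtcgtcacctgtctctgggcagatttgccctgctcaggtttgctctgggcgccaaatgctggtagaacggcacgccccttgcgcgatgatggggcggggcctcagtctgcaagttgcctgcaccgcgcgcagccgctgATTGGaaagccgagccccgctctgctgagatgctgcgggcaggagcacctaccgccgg
Psmb5: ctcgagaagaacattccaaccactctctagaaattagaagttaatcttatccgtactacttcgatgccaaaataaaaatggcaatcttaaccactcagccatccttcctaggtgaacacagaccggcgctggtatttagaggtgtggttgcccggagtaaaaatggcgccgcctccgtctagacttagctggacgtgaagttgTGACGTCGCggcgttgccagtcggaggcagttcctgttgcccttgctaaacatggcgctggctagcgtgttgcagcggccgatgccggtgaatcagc
Psmb6: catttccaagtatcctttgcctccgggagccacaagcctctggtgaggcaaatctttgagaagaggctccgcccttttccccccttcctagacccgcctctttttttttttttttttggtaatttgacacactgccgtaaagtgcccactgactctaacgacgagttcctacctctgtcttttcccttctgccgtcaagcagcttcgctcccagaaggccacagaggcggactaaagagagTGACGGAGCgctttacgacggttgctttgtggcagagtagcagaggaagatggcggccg

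The window of Psmb9 shares 275 bases with that of Tap1, the peptide transporter gene that starts 226 bases away and is read in the other direction. Of the 50 genes, 42 had a promoter window, with 45 windows in all. Both strands were searched, and in 0 of the 45 windows did matches of different motifs overlap. The GAS letters stood in 3 of the 45 windows (Psmb8, Psmd2 and Psmg1), or 6.67%, against 8.3% of all 32851 windows. The interferon-stimulated response element (ISRE) stood in 5 windows (Psmb3, Psmd4, Psmd9, Psme1 and Psmg4), or 11.1%, against 3.44% of all windows. ARE letters stood in 6 (Psmb5, Psmb6, Psmc6, Psmd12, Psmd9 and Psme4), or 13.3%, against 12.4%, and CCAAT in 15, or 33.3%, against 37.4%. These matches describe letters in the windows and not sites in use.

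The libraries carried the marks of γδ T cells. The 12 γδ markers, among them the receptor gene Trdc, summed to 14395 to 15299 CPM in KD and 13637 to 14470 CPM in chow. Cd4 had 0 counts in every library. RNA of other fat cells varied: stromal and mesothelial markers summed to 31.04, 565, 494 and 647 CPM in KD replicates 1 to 4 and to 36.6, 16.5, 25.8 and 215 CPM in chow replicates 1 to 4. Endothelial markers reached 209 and 330 CPM in KD replicates 3 and 4 and ran from 50.9 to 103 CPM elsewhere, and adipocyte markers reached 216 and 387 CPM in the same KD libraries and 33.04 CPM at most elsewhere. Macrophage markers summed to 2.59 to 40.5 CPM in KD and 5.96 to 90.9 CPM in chow, αβ T cell markers to 804 to 1032 CPM in KD and 769 to 934 CPM in chow, and B cell markers to 59.6 to 87.9 CPM in KD and 30.9 to 46.9 CPM in chow. Bulk RNA cannot tell fewer cells of a type from less RNA per cell.

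Proteasome transcripts stayed close to their chow levels after KD. None of the 48 tested genes passed the threshold with edgeR (0 rose and 0 fell), where 0.328% of all tested genes rose and 0.179% fell. In either direction the share over all genes was 0.508%. At an unadjusted p under 0.05, 4 were higher and 3 lower, against 4.48% and 4.16% of all genes (8.64% in either direction). In CPM, KD and chow samples did not overlap for 3 of the 48, against 6.05% of all genes. DESeq2, which called 470 genes in all, called 1 proteasome gene (Psmd1), while limma on FPKM and voom called 0. A positive fold change was found for 29 of 48 genes (50.9% of all genes), with a median log2 fold change of 0.079 beside 0.0065 over all tested genes. That count was 25 to 34 in fits without single samples and 41 with the stromal marker level as a second term. In the main fit the extremes were 0.31 for Psmd1 and -0.37 for Psmd9.

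**Figure D1:**
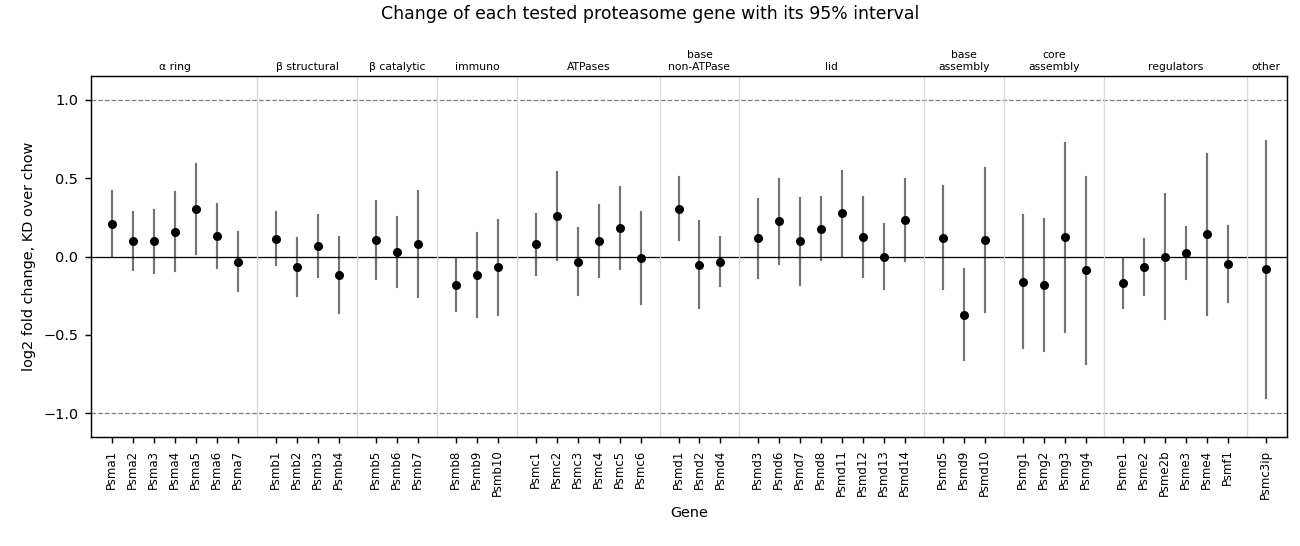
Log2 fold change of KD over chow for each of the 48 tested genes, ordered by role, with 95% intervals as vertical lines and dashed lines at 1 and -1, a change of 2-fold. Every interval lies between the dashed lines, and the longest lines belong to genes of low level such as Psmc3ip, Psmg3 and Psmg4.

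The 95% interval lay within 1 of 0 on the log2 scale for all 48, against 58.6% of all tested genes, and within 0.5 of 0 for 36, against 25.9%. The narrowest belonged to the ubiquitin receptor gene Psmd4 (-0.19 to 0.12) and the widest to Psmc3ip (-0.90 to 0.74). The median coefficient of variation was 10.4% in KD and 8.81% in chow, beside 15.9% and 15.2% for the 8398 tested genes of at least 10 CPM in each diet. Neither these genes nor those of the interval shares were matched to the members in level. Together the 50 genes made up 1.02% ± 0.0393 of the summed FPKM in KD and 1.01% ± 0.0298 in chow (SD, n = 4 each).

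**Figure D2:**
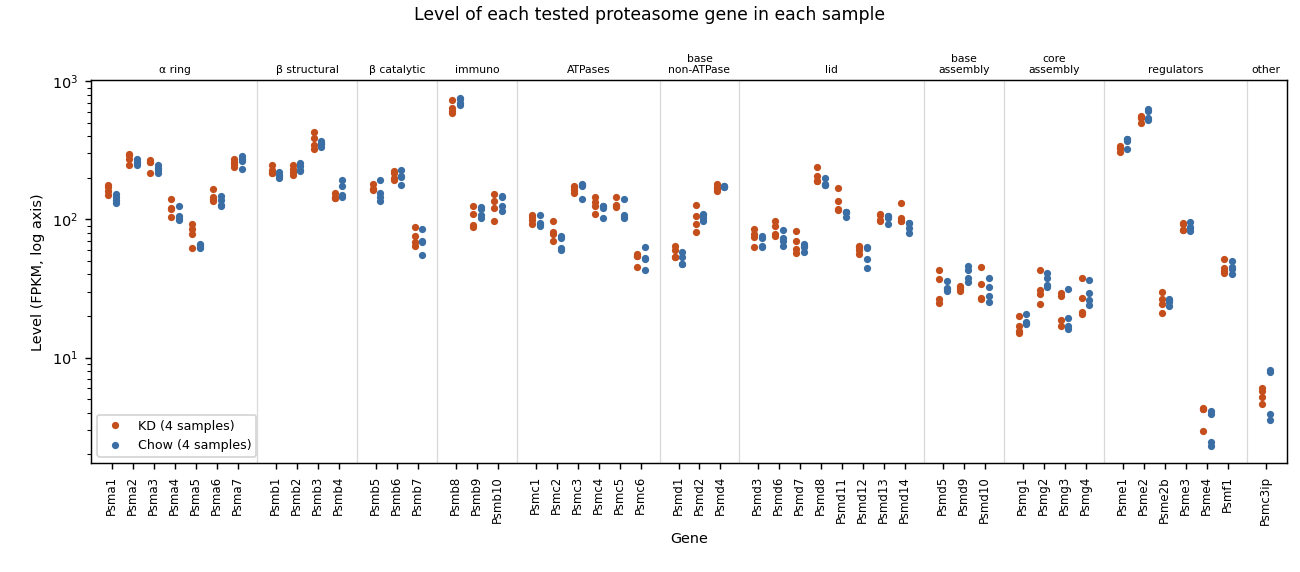
Level of each of the 48 tested genes in FPKM on a log axis, with KD samples as the left points and chow samples as the right points of each gene, ordered by role. Psmb8 stands highest at 644 FPKM in KD and 718 FPKM in chow. The points of both diets overlap for most genes, though not for Psmd9, Psmd11 and Psmd14.

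The α ring, which gates the barrel, holds its subunits in equal number, while their transcripts stood at unequal levels. Among its 7 tested genes, mean levels per length ran from 79.6 FPKM (Psma5) to 279 FPKM (Psma2) in KD and from 64.3 FPKM (Psma5) to 259 FPKM (Psma2) in chow. Fold changes were positive for 6 of 7 (median 0.13; 50.9% of all tested genes), and Psma7 was the exception at -0.03. At an unadjusted p under 0.05, 2 were higher, against 4.48% of all tested genes. Psma5 had 90.8, 72.4, 99.5 and 107.9 CPM in KD replicates 1 to 4 and 77.8, 71.9, 73.2 and 77.5 CPM in chow replicates 1 to 4. KD replicate 2 lay within the chow values and the other KD samples above them (log2 fold change 0.30, SE 0.13, adjusted p = 0.552). Without KD replicates 3 and 4 it was 0.12. For Psma1 the value was 0.21 (SE 0.094, adjusted p = 0.575).

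The structural β subunits Psmb1 to Psmb4 gave 2 positive and 2 negative fold changes, between -0.12 (Psmb4) and 0.11 (Psmb1). Psmb3 was the most abundant constitutive core transcript, at 371 ± 44.6 FPKM in KD and 353 ± 15.1 FPKM in chow (SD, n = 4 each). The core without its immunoproteasome subunits had 11 positive and 3 negative fold changes among 14 tested genes, with a median of 0.098. Over all tested genes 50.9% were positive.

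The constitutive catalytic subunits did not pass. Psmb5, which carries the chymotrypsin-like activity, had 143, 132, 133 and 130 CPM in KD replicates 1 to 4 and 154, 121, 117 and 110 CPM in chow replicates 1 to 4. Chow replicate 1 was above every KD sample and the other chow samples below (log2 fold change 0.10, SE 0.11, adjusted p = 0.883). The value was 0.22 without chow replicate 1 and 0.05 without chow replicate 4. Psmb6, the caspase-like subunit, had 161, 144, 155 and 139 CPM in KD and 164, 125, 149 and 149.6 CPM in chow, its KD values falling inside the chow range (0.03, SE 0.10, adjusted p = 0.978). Psmb7, the trypsin-like subunit, had 94.9, 74.8, 82.8 and 70.8 CPM in KD and 93.2, 59.6, 75.4 and 77.6 CPM in chow, with overlap (0.08, SE 0.15, adjusted p = 0.95). Without single samples Psmb6 ran from -0.04 to 0.08 and Psmb7 from -0.02 to 0.19, both lowest without chow replicate 2 and highest without chow replicate 1. With the stromal marker level as a second term the values were 0.36 for Psmb5, 0.12 for Psmb6 and 0.30 for Psmb7. The exons of Psmb7 share 405 bases with those of Nek6 on the other strand.

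The immunoproteasome subunits all had negative fold changes, against 49.1% of all tested genes, and none passed the threshold. Psmb8, at chr17:34197721-34201454 in the MHC region, had 759, 677, 667 and 625 CPM in KD replicates 1 to 4 and 813, 792, 754 and 728 CPM in chow replicates 1 to 4. Only KD replicate 1 reached into the chow values. The log2 fold change was -0.18 (SE 0.075, 95% interval -0.35 to -0.01, adjusted p = 0.544). Psmb8 shares 498 exonic bases with the antisense gene Gm20496, and Psmb9 shares 212 with Tap1 on the other strand. Without a known strand setting, reads of such partners cannot be told apart. Psmb9, at chr17:34181987-34187764, had 113, 83.4, 98.4 and 82.6 CPM in KD and 109.5, 95.1, 104 and 102 CPM in chow, with KD replicates 2 and 4 below the chow samples (-0.12, SE 0.12, adjusted p = 0.878). Without KD replicate 1 the value was -0.22, without KD replicate 2 it was -0.07 and without KD replicate 4 it was -0.06. Psmb10, on chromosome 8, had 181, 145, 164 and 117.5 CPM in KD and 173, 172, 150.2 and 140.1 CPM in chow. The diets overlapped, with the lowest value in KD replicate 4 (-0.07, SE 0.14, adjusted p = 0.953). Without KD replicate 1 the value was -0.16 and without KD replicate 4 it was 0.03.

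The signs turned in some alternative fits. With the stromal marker level as a second term the log2 fold changes were 0.01 for Psmb8, 0.11 for Psmb9 and 0.27 for Psmb10, and without KD replicates 3 and 4 that of Psmb8 was -0.11, that of Psmb9 -0.06 and that of Psmb10 0.03. The stromal sums given above are highest in KD replicates 2, 3 and 4, where Psmb8 is lowest. Stromal level and diet thus vary together in most of the 8 samples, and that fit cannot tell them apart. The part of stromal RNA in this result was not tested.

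**Figure D3:**
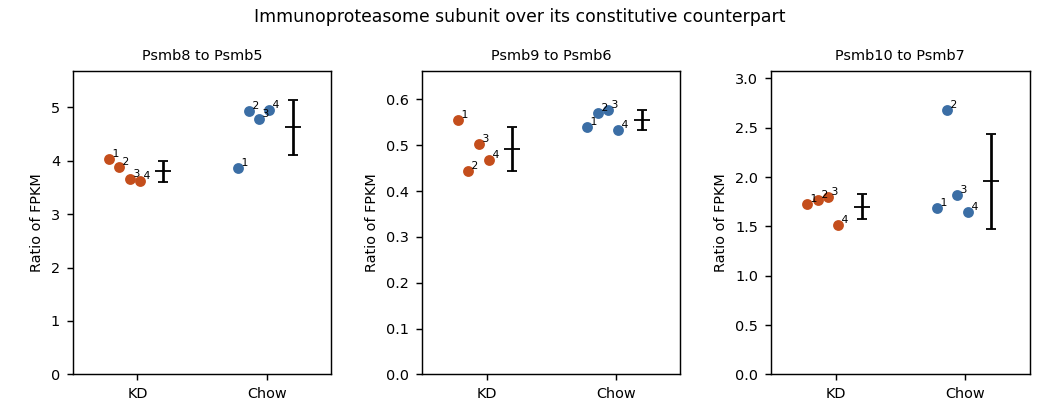
Ratio of each immunoproteasome subunit to the constitutive subunit it replaces, in FPKM, for each numbered sample, with the mean and SD as bars. Psmb8 exceeds Psmb5 in all samples, Psmb9 lies below Psmb6 in all samples, and KD and chow samples overlap for each pair.

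The pairs of interchangeable subunits stood in different proportions. Per length, Psmb8 was 4.03, 3.88, 3.66 and 3.63 times as abundant as Psmb5 in KD replicates 1 to 4, against 3.86, 4.93, 4.78 and 4.94 times in chow replicates 1 to 4. All chow samples but replicate 1 lay above the KD samples. Psmb10 stood at 1.7 ± 0.128 times Psmb7 in KD and 1.96 ± 0.486 times in chow (SD, n = 4 each). Psmb9 reached only 0.492 ± 0.0483 of Psmb6 in KD and 0.555 ± 0.0212 in chow (SD, n = 4 each). The 3 KD means were lower than the chow means, with overlap between the diets each time, and the ratios were not tested. For Psmb10 to Psmb7 the lower KD mean rests on chow replicate 2: the log2 ratio of the diet means was -0.20 with it and -0.01 without it.

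The base of the regulatory particle held the member with the smallest p. Psmd1, a scaffold subunit on which the ubiquitin receptor Adrm1 sits, had 188, 170.0, 154 and 149.7 CPM in KD replicates 1 to 4 and 132, 130.5, 135 and 138 CPM in chow replicates 1 to 4. Every KD sample was above every chow sample. The log2 fold change was 0.31 (SE 0.092, 95% interval 0.10 to 0.51, adjusted p = 0.293). It passed in DESeq2 alone (adjusted p = 0.0283). In FPKM the diets overlapped, at 64.3, 59.9, 53.7 and 53.3 in KD and 53.1, 47.6, 58.1 and 47.3 in chow, and limma gave a log2 fold change of 0.16 on log2 FPKM plus 1. Psmd1 was the 1 member whose KD samples all exceeded chow in CPM, where 3.3% of all tested genes did so.

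The ATPases Psmc1 to Psmc6, which unfold the substrate, had 4 positive and 2 negative fold changes with a median of 0.089 (50.9% of all tested genes positive). The largest was that of Psmc2 (0.26, SE 0.13, adjusted p = 0.624), with KD values from 120.1 to 168 CPM and chow values from 105 to 134 CPM. Psmd2, the other large scaffold, ranged from 226 to 350.4 CPM in KD and from 266 to 303 CPM in chow (-0.05, adjusted p = 0.962). Psmd4 stood at -0.03 (adjusted p = 0.957).

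All 8 lid genes had positive fold changes, from 0.00056 (Psmd13) to 0.28 (Psmd11), with a median of 0.15, and with RLE size factors in place of TMM 7 were positive and 1 negative. In the main fit 50.9% of all tested genes were positive. None of the 8 passed, and 1 was higher at an unadjusted p under 0.05, against 4.48% of all tested genes. Psmd11, which clamps the lid to the core, had 130.3, 143, 119.8 and 176 CPM in KD replicates 1 to 4 and 113, 109.9, 124 and 123 CPM in chow replicates 1 to 4. In CPM, KD replicate 3 lay within the chow range and KD replicate 4 far above it (log2 fold change 0.28, SE 0.12, adjusted p = 0.57). The value was 0.15 without KD replicate 4 and 0.13 with the stromal covariate. In FPKM all KD samples of Psmd11 were above chow, at 116.7 to 170.2 in KD and 104.9 to 113.4 in chow. Psmd14, the enzyme that cuts ubiquitin chains off the substrate, ranged from 122 to 166 CPM in KD, highest in replicate 4 as well, and from 103 to 125 CPM in chow, with overlap (0.24, SE 0.12, adjusted p = 0.629). KD replicate 4 is also the library with the most endothelial and adipocyte marker RNA, and the part of that RNA in these values was not tested. Over lid and base together 13 of 17 fold changes were positive, against 50.9% of all tested genes, with a median of 0.12.

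Genes of assembly factors stood low per length and did not share a direction. The medians were 32.95 FPKM in KD and 32.4 FPKM in chow over the base chaperones and 25.0 FPKM in both diets over the core chaperones, beside 101.5 FPKM in KD and 95.4 FPKM in chow over lid and base. Psmd9, a chaperone that binds the ATPases before they join the base, had 34.6, 36.6, 35.4 and 36.0 CPM in KD replicates 1 to 4 and 44.1, 39.7, 51.2 and 49.2 CPM in chow replicates 1 to 4. The KD values were all below chow. Its log2 fold change of -0.37 was the most negative of the members (SE 0.13, 95% interval -0.66 to -0.08, adjusted p = 0.415). The other base chaperones, Psmd5 and Psmd10 (gankyrin), had values of 0.12 and 0.11. For Psmd10 KD replicate 4 reached 61.8 CPM, against 35.8 to 45.8 CPM in the other KD samples and 33.3 to 50.7 CPM in chow.

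The core chaperones Psmg1 to Psmg4, which guide the α ring, ranged from 16.9 to 32.02 FPKM in KD and from 18.5 to 36.1 FPKM in chow by gene mean. Of 4 fold changes 3 were negative, against 49.1% of all tested genes. Psmg2 had 42.3, 24.2, 30.6 and 28.7 CPM in KD and 32.8, 36.5, 32.2 and 41.0 CPM in chow. KD replicate 1 was above every chow sample and the other KD samples below (-0.18, SE 0.19, adjusted p = 0.882). The value was -0.36 without KD replicate 1, -0.07 without KD replicate 2 and 0.05 with the stromal covariate.

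The proteasome activators were led by the PA28 genes Psme1 and Psme2, whose products cap the core and are induced by interferon-γ. Psme1 had 277, 255, 282 and 270.2 CPM in KD replicates 1 to 4 and 330.1, 292, 302 and 293 CPM in chow replicates 1 to 4. All KD samples were below all chow samples, as for Psmd9, and these 2 members compare with 2.75% of all tested genes. The log2 fold change was -0.17 (SE 0.073, 95% interval -0.33 to -0.01, adjusted p = 0.557), and -0.08 with the stromal covariate. In FPKM the diets overlapped, at 307 to 340.5 in KD and 325 to 383 in chow. Psme2 had 337, 309, 341 and 328 CPM in KD and 383, 313, 355 and 327 CPM in chow, with overlap (-0.07, SE 0.081, adjusted p = 0.904). Without chow replicate 1 the value was -0.01, without chow replicate 2 it was -0.11, and with the stromal covariate it was 0.03.

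The nuclear activator gene Psme3 (0.03, adjusted p = 0.97) and the inhibitor gene Psmf1 (-0.05, adjusted p = 0.961) gave values near 0. Psme4, which encodes PA200, was the least abundant tested proteasome gene at 3.94 ± 0.663 FPKM in KD and 3.2 ± 0.952 FPKM in chow (SD, n = 4 each). Psme2b, a copy of Psme2, had 25.4 ± 3.74 FPKM in KD and 25.3 ± 1.37 FPKM in chow (SD, n = 4 each), and its reads may be shared with Psme2. Psmc3ip ranged from 5.34 to 7.28 CPM in KD and from 4.23 to 9.12 CPM in chow, and 21.2% of its exonic bases are shared with Mlx on the other strand.

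Tissue-specific subunits were close to silent. Psma8, an α subunit of the testis, had 6 counts in KD replicate 2 and 0 in the other libraries. Psmb11, the catalytic subunit of thymic epithelium, had 2, 0, 2 and 1 counts in KD replicates 1 to 4 and 0, 1, 1 and 0 in chow replicates 1 to 4. Neither passed the filter, and a change in them was not detectable at this depth.

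**Figure D4:**
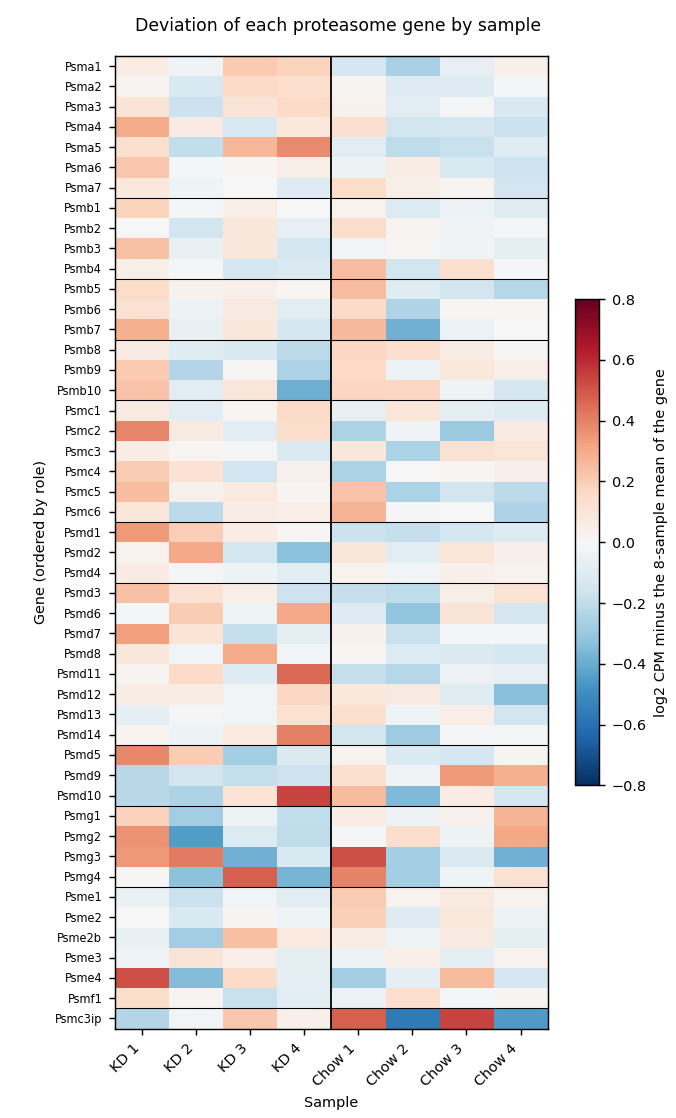
Log2 CPM of each tested gene minus its mean over the 8 samples, with KD samples left of the line and chow samples right of it, genes ordered by role. The largest deviations are those of Psmc3ip (-0.57 in chow replicate 2), Psmd10 (0.54 in KD replicate 4), Psme4 and Psmg3.

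The median deviation of the 48 genes from their own means was 0.09, -0.02, 0.02 and -0.05 (log2) in KD replicates 1 to 4 and 0.06, -0.10, -0.02 and -0.03 in chow replicates 1 to 4. Role groups deviated further in single libraries. The core chaperones stood at 0.27 in KD replicate 1 and at -0.30 in KD replicate 2. In KD replicate 4 the lid stood at 0.14 and the immunoproteasome subunits at -0.24, and in chow replicate 2 the lid stood at -0.19 and the constitutive catalytic subunits at -0.24.

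Related genes outside the rule were listed with earlier results of these data known. Of 13 further subunits and cofactors 0 passed. Positive fold changes were found for 9, against 50.9% of all tested genes, with a median of 0.083. Pomp, which completes core maturation, had 194, 151, 185 and 178 CPM in KD and 160.4, 165, 152 and 154 CPM in chow (0.17, adjusted p = 0.681). Akirin2, an import factor for nuclear proteasomes (0.28, adjusted p = 0.586), Adrm1 (0.14, adjusted p = 0.727) and the activator Zfand5 (-0.15, adjusted p = 0.76) did not pass.

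Of 10 regulators of proteasome genes 0 passed (3 positive and 7 negative fold changes), against 49.1% negative over all tested genes. At an unadjusted p under 0.05, 2 were lower (Maff and Ddi2), and both had all KD samples below chow, beside 4.16% and 2.75% of all tested genes. Nfe2l1 averaged 99.4 ± 20.3 CPM in KD and 98.8 ± 14.1 CPM in chow (SD, n = 4 each; 0.01, adjusted p = 0.995). Maff, a small partner protein of NRF1 and NRF2, had 11.2, 10.5, 16.3 and 14.4 CPM in KD and 18.98, 29.1, 20.02 and 25.8 CPM in chow. All KD samples were below chow (-0.84, SE 0.23, adjusted p = 0.226), and DESeq2 called it (adjusted p = 0.0225). Ddi2, the protease that activates NRF1, was also below chow in every KD sample (-0.36, adjusted p = 0.526). The NRF2 inhibitor Keap1 (-0.22, adjusted p = 0.674) and Mafk (-0.16, adjusted p = 0.759) did not pass.

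Of 15 genes for ubiquitin supply and delivery 0 passed, and 13 had a negative fold change (median -0.07), against 49.1% of all tested genes. At an unadjusted p under 0.05, 1 was lower, against 4.16% of all tested genes. The shuttle factor gene Rad23b stood at -0.32 (adjusted p = 0.552) and the ubiquitin-activating enzyme gene Uba6 at -0.59 (adjusted p = 0.643).

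Genes that induce the immunoproteasome or act beside it in antigen processing mostly had negative fold changes. Of 16 tested, 1 fell (Ifngr2), against 0.179% of all tested genes. A negative fold change was found for 13 (14 with RLE size factors), against 49.1% of all tested genes, and the median was -0.25. At an unadjusted p under 0.05, 6 were lower, and 4 had all KD samples below all chow samples, beside 4.16% and 2.75% of all tested genes. This list was chosen with earlier results of these data known, so its counts describe it and do not test it. Ifngr2, the signalling chain of the interferon-γ receptor, had 210.4, 216, 234 and 238 CPM in KD replicates 1 to 4 and 293, 290.4, 345 and 354 CPM in chow replicates 1 to 4. The KD samples were all below the chow samples. It fell by 0.51 on the log2 scale (SE 0.091, adjusted p = 0.0437). The call held in 8 of the 19 alternatives. Among them were DESeq2 (adjusted p = 1.4e-05), voom (0.0213), library size alone (0.0336) and RLE factors (0.0427). The call was lost in each of the 8 fits without 1 sample (adjusted p = 0.0578 to 0.149), with the replicate block (0.0718), with the stromal covariate (0.179) and without KD replicates 3 and 4 (0.279). The fold change itself stayed at -0.56 to -0.46 without single samples and was -0.51, -0.70 and -0.59 in those 3 fits.

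**Figure D5:**
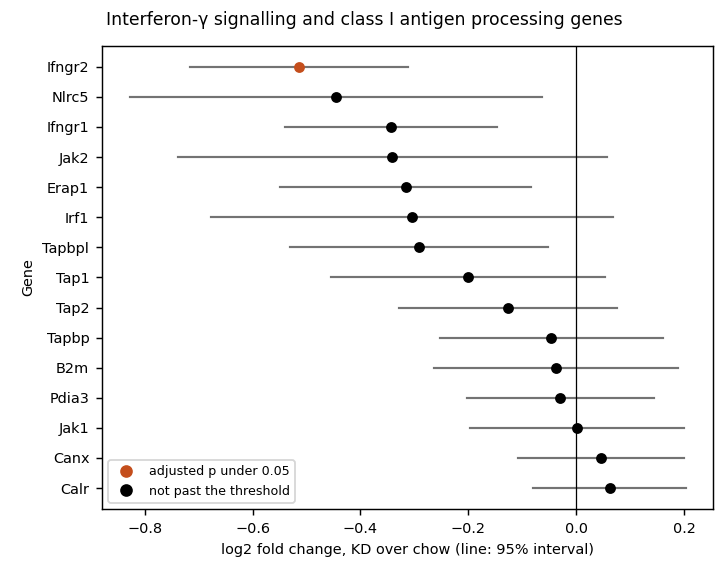
Log2 fold change of KD over chow with 95% intervals for 15 of the 16 genes of interferon-γ signalling and class I antigen processing, ordered by fold change. Ifngr2 stands at the most negative value of -0.51 and passed the threshold. Jak1, Canx and Calr, which are positive, and Pdia3, B2m and Tapbp, which are negative, lie close to 0.

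Other genes of this list did not pass. Ifngr1, the ligand-binding chain of the receptor, averaged 2580 ± 260.0 CPM in KD and 3275 ± 285 CPM in chow (SD, n = 4 each), without overlap (-0.34, SE 0.088, adjusted p = 0.187). DESeq2 called it (adjusted p = 0.00896). Erap1, which trims peptides in the endoplasmic reticulum, stood at -0.32 (adjusted p = 0.38) and the transcription factor gene Irf1 at -0.30 (adjusted p = 0.677). Tap1, whose promoter window overlaps that of Psmb9, had 200.3, 209.8, 226 and 155 CPM in KD and 230.2, 244, 223 and 211 CPM in chow, with 1 KD sample among the chow values (-0.20, SE 0.11, adjusted p = 0.69).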

How the data were processed

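Polyadenylated RNA of sorted γδ T cells was sequenced in 8 samples, 4 from mice on the ketogenic diet (KD) and 4 from mice on chow. The authors deposited estimated counts per gene, which need not be whole, and FPKM values (fragments scaled by gene length and by library total). The submitters' processing notes name BWA, TopHat2, RSEM, DESeq2 and GRCm38, with neither versions nor roles. Counts that were not whole were found for 5310 to 5802 genes in a sample. Such counts divide reads between similar genes, so near-identical copies are uncertain. No source used here gives the strand setting.

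Counts were rounded. The filterByExpr function of edgeR (at least 10 counts in enough samples and 15 in all) kept 13397 genes, and libraries were scaled with TMM factors. CPM is the count per 1000000 counts of the scaled total. The main test was the robust, two-sided quasi-likelihood F test of edgeR for diet alone. P-values were adjusted over all genes by Benjamini-Hochberg, and 0.05 was the threshold. Every log2 fold change is KD over chow, with standard errors and 95% intervals taken from the F statistic. Intervals are for single genes. The software was DESeq2 1.42.0, edgeR 4.0.16 and limma 3.58.1 in R 4.3.3, and the fit was tested on simulated data. No pair of libraries held identical counts. Total counts ran from 19796126 to 26572328 in KD samples and from 23940838 to 31926441 in chow samples, and 3 counts corresponded to 0.0947 to 0.152 CPM.

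Alternatives were RLE factors, library size alone, no filter, a filter of 5 CPM in 4 samples, DESeq2, limma on log2 FPKM plus 1 or 0.1, voom with sample quality weights, a replicate block, a stromal marker covariate, and leaving out each sample or KD replicates 3 and 4 together. Genes with full values were the immunoproteasome subunits and their counterparts, Psme1 and Psme2, the 5 members with the smallest p, and the 3 with the largest and the 3 with the smallest log2 fold change. Of each list of related genes, the 4 with the smallest p, any past the threshold and Nfe2l1, Irf1, Tap1 and Pomp were named, except that some are not reported here, and other members are given by ranges or single values. The members and lists were chosen with earlier results of these data known. Gene positions came from GENCODE M21 (GRCm38): all 50 genes matched by identifier, 30 of them with the same version.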

Additional observations from a re-analysis of the deposited data

Results flagged for a closer look

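Of 136 groups of 4 samples examined (the tested members, the named related genes and the FPKM ratios in each diet), 8 had a highest or lowest sample far from the rest, where chance gives about 1 in 20. The count of 8 is near that share, and the ratios reuse genes that were also examined singly. The gap to the nearest sample, as a share of the group's range, was 0.889 for Psma4 in chow, with 134 CPM in replicate 1 and 108.5 to 111 CPM in the others. It was 0.908 for Psmc3 in chow, with 189 CPM in replicate 2 and 239 to 244 CPM in the others, and 0.872 for Psmc4 in chow, with 133 CPM in replicate 1 and 159 to 163 CPM in the others. In KD it was 0.846 for Psmc6, with 67.2 CPM in replicate 2 and 80.8 to 83.3 CPM in the others, and 0.857 for Rad23b, with 55.7 CPM in replicate 1 and 41.9 to 43.8 CPM in the others. The ratio of Psmb8 to Psmb5 stood apart in chow replicate 1 (3.86 against 4.78 to 4.94, share 0.847). The ratio of Psmb10 to Psmb7 did so in chow replicate 2 (2.68 against 1.65 to 1.81, share 0.836), as did that of Psme1 to Psme2 (0.704 against 0.609 to 0.617, share 0.922).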

How the results depend on the processing

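Across the 19 alternatives no proteasome gene was called lower, and 1 (Psmd1, DESeq2) was called higher. The median log2 fold change of the members was 0.0108 to 0.0776 without single samples, that of the core 0.072 to 0.132 and that of lid and base 0.0659 to 0.153. With the stromal covariate the core median was 0.231. Signs of some named genes turned, and their main values were not all near 0 (-0.179 for both Psmb8 and Psmg2). With the stromal covariate Psmb8 was at 0.00857, Psmb9 at 0.115, Psmb10 at 0.267, Psme2 at 0.0335, Psmg2 at 0.0502 and Nfe2l1 at -0.522. Without KD replicates 3 and 4, Psmb10 was at 0.0306 and Nfe2l1 at -0.0278. Nfe2l1 was at -0.00076 without a filter, -0.000713 with voom and -0.00455 with the replicate block. Without single samples Psmb10 ran from -0.163 to 0.033, Psmb6 from -0.0422 to 0.0838, Psmb7 from -0.0226 to 0.189 and Nfe2l1 from -0.105 to 0.133. The log2 ratio of diet means ran from -0.363 to -0.251 for Psmb8 to Psmb5, -0.235 to -0.126 for Psmb9 to Psmb6 and -0.276 to -0.012 for Psmb10 to Psmb7, and with CPM in place of FPKM it was -0.301, -0.158 and -0.193 in the same order. The causes were not tested.

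Over all genes, 44 rose and 24 fell. Those counts were 298 and 172 with DESeq2, 82 and 44 with limma on FPKM plus 1, 79 and 40 with FPKM plus 0.1, 11 and 1 with the replicate block, 6 and 2 with the stromal covariate and 4 and 0 without KD replicates 3 and 4. The filter of 5 CPM gave 45 lower. Fits without single samples gave 12 to 32 higher and 0 to 13 lower. Over all genes, sample numbers gave no sign of pairing. Same-numbered deviations correlated at -0.114 to 0.0536, and 0 of 4 KD samples correlated best with their own number. This check cannot exclude a shared batch that touches some genes. The replicate block called 0 members. The full widths of the 95% intervals ran from 0.308 for Psmd4 to 1.64 for Psmc3ip. For Psmd1 (0.307) the interval of 0.10 to 0.51 left out 0, but the change did not pass the main threshold. For the low-level genes Psmg3 and Psmg4 the full widths were 1.202 and 1.194, with an SE of 0.27 for both. Which size of change would pass the threshold at this depth was not tested.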

Other observations

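The proportion of the PA28 genes varied less among KD samples than among chow samples in CPM. The ratio of Psme1 to Psme2 in CPM was 0.821, 0.825, 0.827 and 0.824 in KD replicates 1 to 4, against 0.862, 0.933, 0.849 and 0.898 in chow replicates 1 to 4, without overlap. In FPKM it was 0.594 to 0.615 in KD and 0.609 to 0.704 in chow, with overlap. This ratio was chosen after its values were seen and was not tested.

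Pseudogenes named after catalytic subunits held few counts. Psmb7-ps2 had 3.88 counts in KD replicate 3 and 0 in the other KD samples, against 19.97 counts in chow replicate 1 and at most 1 in the other chow samples. Psmb6-ps2 had 0, 0, 2 and 2 counts in KD and 1, 4, 1 and 2 in chow.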
